A study of Mus musculus with 2 samples.

Results

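Among pancreatic tumor cells of 2 mouse tumor libraries that passed set filters, those richest in RNA for a set of secreted factors were examined. Of the RNA in the filtered tumor cells they held 44.7% and 52.0% for Cxcl2 and 40.8% and 48.2% for Lif. These cells were selected on that RNA, by the summed unique molecular identifiers (UMIs, each standing for 1 captured RNA molecule) of Lif, Csf3, Cxcl1, Cxcl2 and Ereg as a share of all UMIs of the cell. Tumor cells were taken from barcodes with at least 3000 UMIs, 200 to 5000 genes and up to 8% mitochondrial UMIs. They held at least 2 UMIs of Krt8 and Krt18, no Ptprc, no Pecam1, up to 1 UMI of Dcn and Lum, and under 0.2% of UMIs from the macrophage genes Lyz2, C1qa, C1qb and C1qc. The highest 10% of the 3249 tumor cells of both libraries, 325 cells, were compared with the other 2924. Of the 11249 barcodes that passed the filters on UMIs, genes and mitochondrial share, the selected cells were 2.89%.

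Cxcl1 and Cxcl2 are chemokines that draw neutrophils through the receptor Cxcr2, and Csf3 (G-CSF) drives the production and survival of neutrophils through Csf3r. Lif belongs to the interleukin-6 family and signals through Lifr and gp130 (Il6st), and in pancreatic cancer it is known as a signal between stromal and tumor cells. Ereg (epiregulin) is a ligand of the EGF receptor. Transcription of the chemokines, of Csf3 and of Il6 is known to be raised by NF-kB, the factor that TNF and interleukin-1 activate, which also turns on its own inhibitors such as Nfkbia and Tnfaip3.

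Each condition was 1 library of unsorted live cells from tumors that grew after KPC cells, a mouse pancreatic cancer line, had been placed in the pancreas. The labels name the genotypes FLOX and MCT1-KO, which the study calls flox and PSCs-MCT1-/-. In the latter a Cre that tamoxifen activates, driven by the Col1a2 promoter, should remove MCT1 (Slc16a1, a lactate transporter) in pancreatic stellate cells and other cells that use that promoter, and tamoxifen was given before the tumor cells. The deletion was thus meant for host cells and not for the injected line. How many mice gave cells to each library, their age, and whether the flox mice received tamoxifen or oil are not in the labels. With 1 library per condition there is no test between conditions, and no p-value was computed. Intervals are 95% and cover counting error only.

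The libraries held 177334432 UMIs (flox) and 151118092 UMIs (PSCs-MCT1-/-). The filters kept 4963 and 6286 barcodes, of which 20 sequences occurred in both libraries, and 1023 and 2226 of these were tumor cells, of which 3 sequences were shared. No barcode of a selected cell was shared with the selected cells of the other library. Doublets were not called or removed. Slc16a1 was at 36.5 CPM (UMIs of a gene per 1000000 UMIs of the group) in the selected cells of the flox library and at 38.2 CPM in those of the PSCs-MCT1-/- library, and at 33.2 and 46.5 CPM in the other tumor cells, in which no deletion is meant.

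The selected cells numbered 93 of 1023 tumor cells in the flox library (9.09%, exact binomial interval 7.40 to 11.02) and 232 of 2226 in the PSCs-MCT1-/- library (10.4%, 9.18 to 11.8). The ratio of these shares was 1.15, with a counting interval of 0.898 to 1.47, and with equal weight of the 5 genes in the score it was 1.43 (1.11 to 1.87). Cells are not replicates, so neither interval bears on the conditions. The cells just inside and just outside the limit held 0.863% of their UMIs from the 5 genes (156 of 18071) and 0.862% (30 of 3481). The median was 1.22% in the selected cells, with a highest value of 4.10%, and 0.0678% in the other tumor cells. The score had no gap at this point, so the selected cells are the upper end of a range. Their median depth was 19314 and 17333 UMIs, against 15497 and 15912.5 UMIs in the other tumor cells, and their median mitochondrial share was 3.48% and 3.78%, against 3.15% and 3.56%.

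A name after Lif and Csf3 would go against the data. Cxcl2 had more UMIs than any other scoring gene in 92 of 93 and in 231 of 232 selected cells, and gave a median of 83.0% and 82.2% of a cell's score. Csf3 gave 0.147% and 0.424% of the scoring UMIs, and its median was 0 UMIs per cell. The cells are therefore called Cxcl2-high tumor cells here. Only RNA was measured, so nothing is known of what they secreted.

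Levels of the 5 scoring genes are a description, since they chose the cells. Cxcl2 was at 10487.5 CPM in the flox library and 11039.8 CPM in the PSCs-MCT1-/- library in Cxcl2-high cells, and at 1654 and 1319 CPM in the other tumor cells. Every Cxcl2-high cell held Cxcl2, with a lowest value of 3931 and 3617 CPM and a median of 9609 and 9858 CPM. Cxcl1 was at 1467 and 2054 CPM against 201 and 179 CPM. Its share of cells with a UMI was 83.9% and 84.5%, against 51.0% and 40.8% of the other tumor cells.

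Lif was at 243 and 359 CPM against 45.0 and 49.9 CPM. Ereg was at 399 and 377 CPM against 107 and 105 CPM. Lif was found in 74.2% and 84.1% of Cxcl2-high cells and Ereg in 82.8% and 87.9%, and after thinning to 3000 UMIs per cell in 39.8% and 53.0% (Lif) and 55.9% and 54.3% (Ereg). Csf3 was at 18.5 CPM (31 UMIs) and 58.8 CPM (225 UMIs) against 2.13 and 5.18 CPM, and was found in 11.8% and 24.1% of Cxcl2-high cells. A single flox cell held 15 of the 31 Csf3 UMIs. At least 1 UMI of all 5 genes was present in 6 of 93 (6.45%) and 44 of 232 (19.0%) cells. After each cell had been thinned to 3000 UMIs, 0 of 93 cells, which by 3 counts of the total allows a share of up to 3.23%, and 8 of 232 cells held all 5.

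**Figure D1:**
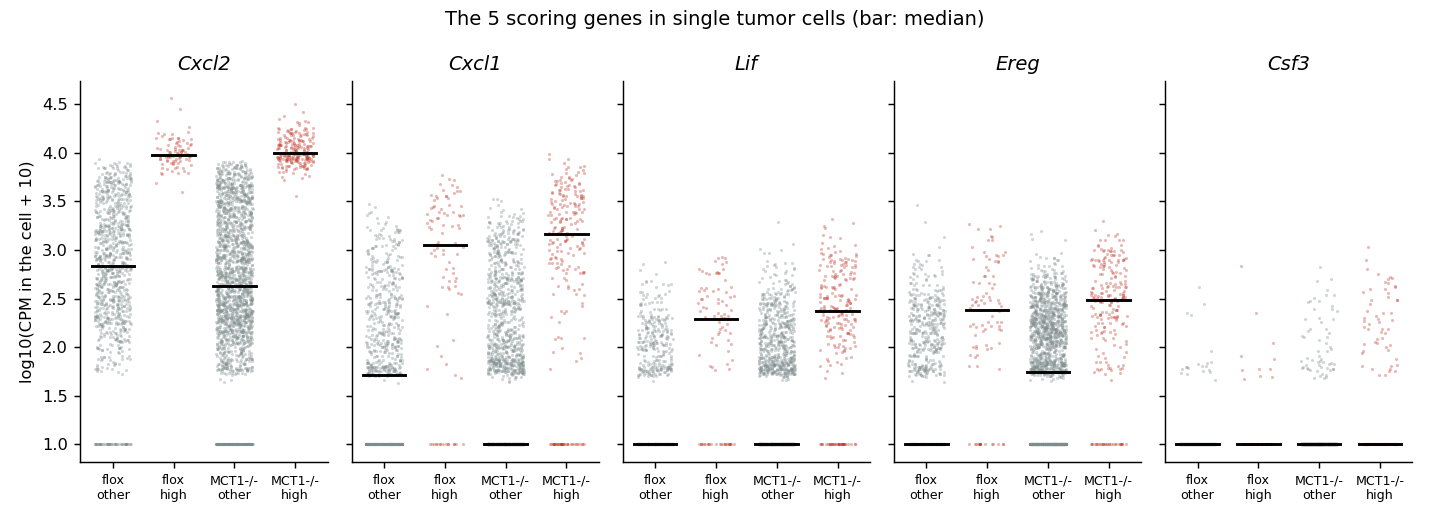
Each point is 1 tumor cell, and the vertical axis is log10 of its CPM plus 10 for each scoring gene, so that cells without a UMI lie at 1.0. Grey points are the other tumor cells, red points the Cxcl2-high cells, and bars are medians (Cxcl2: 9609 and 9858 CPM in Cxcl2-high cells). Cxcl2 separates the groups because it dominates the score, whereas Csf3 is at 0 in most cells of every group.

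T and NK cells with at least 3000 UMIs and no UMI of Krt8 or Krt18 served as a check on free RNA. They also had under 1% of UMIs from S100a8 and S100a9 and under 0.2% from Lyz2, C1qa, C1qb and C1qc. Their median depth was 4304 and 4208 UMIs. A Cxcl2 UMI was present in 52.7% of them in the flox library and 29.7% in the PSCs-MCT1-/- library, at 162 and 79.7 CPM, and a Cxcl1 UMI in 14.2% and 6.93%. Lif was found in 2.96% and 1.98% of them, Ereg in 1.78% and 1.98%, and Csf3 in 0 of 169 and 0 of 101, which by 3 counts of the total allows a share of cells with a UMI of up to 1.78% and 2.97%. The share of other tumor cells with a Cxcl2 UMI (94.6% and 88.8%) has to be read beside this background. At 3000 UMIs per cell it was 75.1% and 66.0%, against 37.9% and 18.8% of T and NK cells. Cells that held keratin RNA or more RNA of these neutrophil and macrophage genes were left out of the check, so this background may be too low. In the free RNA of barcodes with 10 to 100 UMIs, Cxcl2 was at 1667 and 1327 CPM, against 1654 and 1319 CPM in the other tumor cells. Cxcl1 was at 358 and 333 CPM there, and Lif at 75.3 and 83.6 CPM. Of the 5 genes only Ereg was higher in the other tumor cells (107 and 105 CPM) than in this free RNA (46.4 and 56.8 CPM). The part of free RNA in the other tumor cells was not tested. In the T and NK gate with at least 500 UMIs, without the limit on keratin, Cxcl2 was at 281 and 652 CPM.

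To describe how far the 5 genes went together, each was held out of the score in turn. Among the top 10% by the other 4 genes, Lif was higher than in the other tumor cells by 4.96-fold (4.35 to 5.65) in the flox library and 6.88-fold (6.38 to 7.41) in the PSCs-MCT1-/- library. Held out in the same way, Cxcl1 was higher by 6.08-fold and 8.72-fold, and Ereg by 2.90-fold and 3.50-fold. Csf3 was higher by 8.69-fold (5.04 to 15.04) and 11.4-fold (9.21 to 14.05), and the score without it chose the same 325 cells. In the flox library, where Csf3 had 31 UMIs, that ratio was 2.55 for the top 5% of cells and 3.25 when cells were thinned to 3000 UMIs before scoring, and 4.55 (2.30 to 8.70) without the cell with the most Csf3, against 10.45 in the other library. Cxcl2, held out, was higher by 3.97-fold and 5.39-fold, although only 208 of the 325 cells (64.0%) were then the same. Each of the 5 genes was higher in cells chosen without it, in both libraries. With Lif, Cxcl1 or Ereg held out, 97.8%, 91.7% and 97.2% of the cells were the same as the 325. The set of 5 was chosen with earlier results of these data known, so whether its genes go together was not tested.

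Across the transcriptome, 10264 genes had at least 50 UMIs among the tumor cells of each library. A gene was counted as higher or lower when the ratio of CPM between Cxcl2-high and other tumor cells was past 1.5-fold in the same direction in both libraries. By this rule 233 genes were higher, 2.27% of those compared, and 257 were lower, 2.5%. Among tumor cells without immune UMIs these counts were 79 and 23, and the lower genes numbered 71 with at least 200 UMIs per gene and 112 for the top 20% of cells. The median ratio over all genes was 0.932 and 0.928. Of the higher genes, 12 led by the smaller of their ratios: Gm16685, Tnfaip3, Gm41409, Olr1, Nfkbid, Cxcl10, Klhl25, Nfkb1, Ccl2, Rnd1, Csf1 and Orai2.

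The TNF and NF-kB list had more higher genes than any other list examined. The lists were chosen with earlier results of these data known, so this is a description. Of 26 compared, 15 were higher and 0 were lower (all genes: 2.27% and 2.5%), and the median ratio of the list was 1.596 and 2.20. Among the inhibitors, Nfkbia, which holds NF-kB in the cytoplasm, was at 6464 and 4521 CPM against 2033 and 1319 CPM, a ratio of 3.18 (3.11 to 3.25) and 3.43 (3.37 to 3.49). Tnfaip3 (A20), which trims ubiquitin chains from the signalling complexes, was at 341 and 309 CPM against 70.3 and 56.7 CPM, higher by 4.85-fold (4.36 to 5.39) and 5.45-fold (5.06 to 5.88). Of other regulators in the list, Nfkbiz, Nfkbie, Nfkbib, Tnip1 and Zc3h12a (Regnase-1, a nuclease that degrades cytokine mRNAs) were also higher. These 5 were higher by 1.53-fold to 2.92-fold in the flox library and 2.20-fold to 2.90-fold in the other.

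Subunits and adaptors were higher as well. Nfkb1, the p105/p50 subunit, was at 1357 and 1695 CPM against 372 and 407 CPM, higher by 3.65-fold and 4.17-fold. Rel was higher by 2.33-fold and 2.83-fold, Bcl3 by 1.78-fold and 2.19-fold, Traf1 by 2.25-fold and 3.39-fold, Ripk2 by 2.76-fold and 2.79-fold, and Birc3 by 1.51-fold and 1.75-fold. Sod2 and Tnfaip2, both induced by NF-kB, were higher by 1.71-fold and 2.81-fold and by 2.95-fold and 4.08-fold. Rela, Relb and Nfkb2 had ratios of 1.29, 1.43 and 1.44 in the flox library and 1.798, 1.89 and 1.94 in the other, past 1.5-fold in only the PSCs-MCT1-/- library. The receptors Tnfrsf1a (0.910 and 0.948) and Tnfrsf1b (1.08 and 1.17) did not pass in either.

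**Figure D2:**
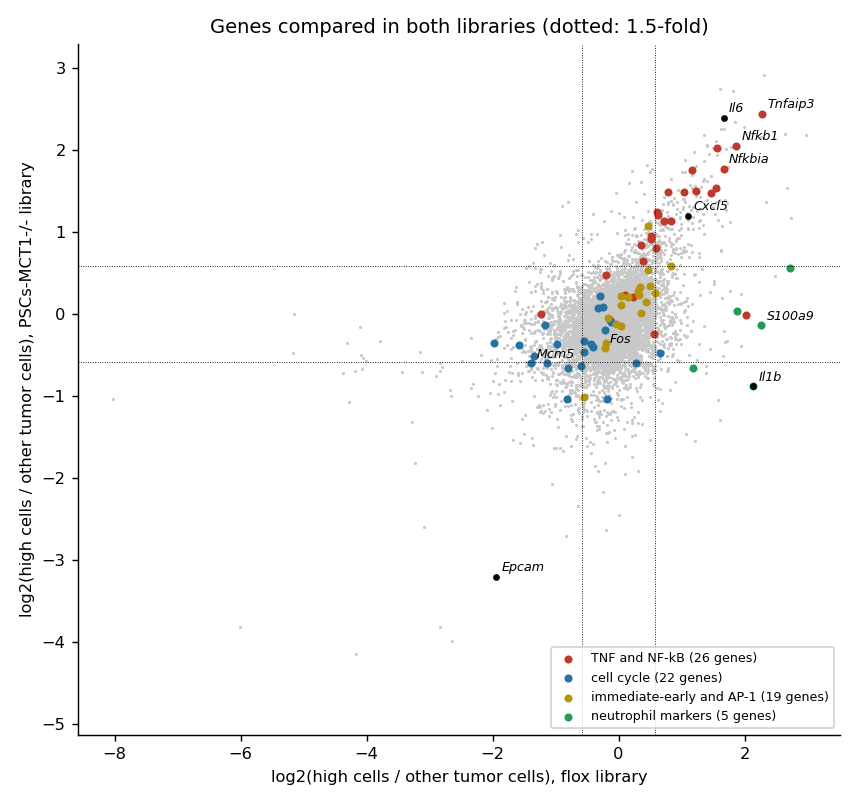
Each point is a gene with at least 50 UMIs in the tumor cells of each library; the axes are log2 of the ratio of CPM between Cxcl2-high and other tumor cells in the flox library (horizontal) and the PSCs-MCT1-/- library (vertical), and dotted lines mark 1.5-fold. The TNF and NF-kB list (red) lies mostly in the upper right corner, with 15 of 26 genes past both lines, the cell cycle list (blue) lies mostly below 0, and the 5 neutrophil markers compared (green) are past 1.5-fold to the right in the flox library, with none past it upwards in the other.

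Other secreted factors that took no part in the score were among the higher genes. Csf1, the growth factor of macrophages, was at 409 and 306 CPM against 119 and 74.1 CPM, higher by 3.43-fold (3.13 to 3.76) and 4.13-fold (3.84 to 4.44). Il6 was at 118 and 169 CPM against 37.1 and 32.1 CPM, higher by 3.18-fold (2.68 to 3.75) and 5.28-fold (4.77 to 5.84). In the interleukin-6 family 3 of 10 genes were higher and 0 were lower (all genes: 2.27% and 2.5%), namely Il6, Il11 (1.72-fold and 2.29-fold) and Clcf1 (2.02-fold and 2.43-fold).

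Among chemokines, Ccl2, which draws monocytes, was higher by 3.61-fold and 5.10-fold. Cxcl10, a ligand of Cxcr3 on T cells, was at 1146 and 734 CPM against 288 and 151 CPM, higher by 3.98-fold and 4.87-fold. The neutrophil chemokines Cxcl5 and Cxcl3 were higher by 2.15-fold and 2.30-fold and by 1.83-fold and 1.82-fold. They were 2 of 4 compared in that list, in which 0 were lower. Of the chemokines outside the neutrophil list, 2 of 8, namely Ccl2 and Cxcl10, were higher and 0 were lower, against 2.27% and 2.5% of all genes.

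Several of the leading cytokine genes are neighbours on chromosome 5 (GRCm38, GENCODE vM21). From Cxcl5 at chr5:90759360-90761624 the cluster runs through Cxcl3, Cxcl15, Cxcl1 at chr5:90891241-90893115 and Cxcl2 at chr5:90903871-90905938 to Ereg at chr5:91074622-91093646 and Areg at chr5:91139599-91148432. Areg, which like Ereg is a ligand of the EGF receptor, was higher by 1.56-fold and 1.94-fold. Not all neighbours followed. Mthfd2l, between Cxcl2 and Ereg, had ratios of 0.883 and 0.962, and Cxcl15 had 0.830 and 1.19. Pf4, between Cxcl5 and Cxcl3, had 1.67 and 1.07. Epgn and Btc held no UMI in Cxcl2-high cells of either library. Lif lies apart at chr11:4257557-4272514, and Csf3 at chr11:98701263-98703629.

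Promoter sequences of these genes are shown because the TNF and NF-kB list held many of the higher genes. The 250 bases before the transcription start were searched on both strands for an NF-kB type motif (GGG, then any 3 bases, then TTCC) in 32851 RefSeq promoters (GRCm38.p6), of which 4.65% held it. Promoters were given for 3 of the 5 scoring genes, Cxcl1, Cxcl2 and Lif. Cxcl1 and Cxcl2 held the motif, and Lif did not. Among the genes counted as higher, 173 had a promoter in the table and 25 of these (14.5%) held the motif in at least 1 of their promoters, against 12 of 204 lower genes (5.88%) and 506 of all 8158 compared genes (6.203%). The AP-1 motif (TGA, any base, TCA) was present in 11.6% of the higher, 4.41% of the lower and 5.58% of all compared genes. A match is a description and not a binding site.

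Bases 160 to 31 before the start are printed for the 2 chemokines that led the score and for 4 of the higher genes that held the motif, with its matches in capitals. They lie at chr5:90903739-90903868 (+) for Cxcl2, chr5:90891085-90891214 (+) for Cxcl1, chr5:90785941-90786070 (+) for Cxcl3, chr5:30012954-30013083 (+) for Il6, chr5:92348920-92349049 (-) for Cxcl10 and chr3:107760500-107760629 (-) for Csf1.
Cxcl2: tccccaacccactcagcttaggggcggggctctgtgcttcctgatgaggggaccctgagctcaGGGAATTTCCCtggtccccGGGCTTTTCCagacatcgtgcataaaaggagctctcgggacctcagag
Cxcl1: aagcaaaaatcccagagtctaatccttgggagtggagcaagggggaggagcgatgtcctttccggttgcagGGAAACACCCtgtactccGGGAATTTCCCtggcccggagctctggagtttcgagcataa
Cxcl3: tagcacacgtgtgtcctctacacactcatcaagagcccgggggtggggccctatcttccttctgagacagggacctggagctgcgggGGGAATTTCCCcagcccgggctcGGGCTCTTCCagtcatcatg
Il6: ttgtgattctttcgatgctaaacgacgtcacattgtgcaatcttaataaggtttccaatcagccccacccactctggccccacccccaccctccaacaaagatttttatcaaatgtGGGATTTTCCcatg
Cxcl10: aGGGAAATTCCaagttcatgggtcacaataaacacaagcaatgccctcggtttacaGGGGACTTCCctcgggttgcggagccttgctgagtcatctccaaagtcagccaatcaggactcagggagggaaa
Csf1: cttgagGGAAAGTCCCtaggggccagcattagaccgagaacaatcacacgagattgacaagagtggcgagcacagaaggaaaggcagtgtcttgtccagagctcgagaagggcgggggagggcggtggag
Cxcl1, Cxcl2 and Cxcl3 each held 3 overlapping or separate matches, the nearest at 70, 78 and 50 bases before the start, Il6 and Csf1 held 1, and Cxcl10 held 2. The motif also occurred once in the promoter of Nfkbia, at 29 bases before the start. No match was found in the promoters of Irf1 and Areg, which were also counted as higher.

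Some prostaglandin and protease genes were also higher. Ptgs2 (COX-2), which makes the precursor of prostaglandin E2, was at 444 and 350 CPM against 206 and 158 CPM, higher by 2.15-fold and 2.21-fold. Ptges, the next enzyme, was higher by 2.07-fold and 3.33-fold on 14 and 25 UMIs, and the receptor Ptger4 was lower, with ratios of 0.464 and 0.449. The plasminogen activators Plau (2.55-fold and 4.55-fold) and Plat (1.64-fold and 1.82-fold) were higher, and Timp3 was lower (0.406 and 0.455).

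Targets of the ERK pathway, which growth factor receptors activate, were higher in part. Of 18 genes 4 were higher and 0 were lower (all genes: 2.27% and 2.5%): Ier3 (2.45-fold and 2.43-fold), Dusp5 (1.90-fold and 1.91-fold), Fosl1 (1.73-fold and 1.85-fold) and Myc (1.601-fold and 2.35-fold). The other feedback genes Dusp6 (0.892 and 1.26) and Spry2 (0.869 and 1.30) were not. Of 19 immediate-early and AP-1 genes, which cells also switch on during dissociation, only Egr3 was higher (1.78-fold and 1.51-fold). Fos had ratios of 0.857 and 0.749, Jun 1.03 and 1.17, and Atf3 0.975 and 0.921. The median of the list was 1.24 and 1.16, above that of all genes but short of 1.5-fold. Ratios were above 1 in both libraries for 13 of the 19 genes and below 1 in both for 5. The part of dissociation in the higher genes was not tested.

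Of all genes compared 2.27% were higher and 2.5% lower, beside which the following counts stand. In the interferon list 2 of 22 genes were higher, Irf1 (2.34-fold and 3.50-fold) and Gbp5 (2.88-fold and 2.34-fold), and Oasl1 was lower (0.371 and 0.653). Irf1 is also a known target of NF-kB. Of 26 genes of glycolysis, lactate and hypoxia 4 were higher: Egln3 (2.64-fold and 3.08-fold), Car9 (3.07-fold and 1.70-fold), Ndrg1 (1.75-fold and 2.06-fold) and Hk2 (1.61-fold and 1.82-fold). Ldha had ratios of 1.10 and 1.006. Of 14 genes of the integrated and ER stress responses 1 was higher (Trib3, on 13 and 24 UMIs), and of 10 genes of the NRF2 and iron list 1, the cystine transporter Slc7a11 (2.99-fold and 2.22-fold). Il1rl1, the receptor of interleukin-33, was the only one of 9 interleukin-1 family genes that was higher in both libraries (2.72-fold and 3.86-fold).

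None of 22 cell cycle genes was higher in both libraries. Of these genes 5 were lower (Ccnb2, Birc5, Mcm2, Mcm5 and Mcm6), and 17 had ratios below 1 in both libraries, with medians of 0.684 and 0.764 against 0.932 and 0.928 over all genes. Birc5 was at 31.7 and 35.6 CPM against 47.9 and 55.3 CPM. Mki67 went opposite ways, with ratios of 1.57 and 0.723. The lower calls in this list rested on 7 to 136 UMIs in Cxcl2-high cells, and some did not hold in other choices of cells: Birc5 had ratios of 1.09 and 0.650 with Cxcl2 left out of the score, and 0.854 and 1.12 among cells without immune UMIs.

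Keratins were present in Cxcl2-high cells. Krt19 was at 62.2 and 49.4 CPM against 62.3 and 59.8 CPM, and Krt7 at 33.5 and 50.7 CPM against 49.0 and 56.5 CPM. Krt8 and Krt18 were used in the gate. Krt8 was at 347 and 409 CPM against 476 and 595 CPM, and Krt18 at 398 and 480 CPM against 615 and 662 CPM. Of 7 epithelial genes 5 had ratios below 1 in both libraries and 2 had ratios above 1. Only Epcam was counted as lower, at 2.39 and 1.05 CPM (4 UMIs in each library) against 9.21 and 9.64 CPM. Of 8 mesenchymal genes none passed, beside 2.5% of all genes that were lower. Epcam and Cdh1, defining markers of epithelial cells, were thus low in all tumor cells of these libraries, with Cdh1 at 6.57 and 2.88 CPM against 6.62 and 7.04 CPM. Checkpoint ligands and suppressive factors had 0 of 10 genes higher or lower, near the shares of 2.27% and 2.5% over all genes.

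Among the lower genes were markers of other cells. The 12 leading ones were Jchain, Iglc1, Iglv1, Igha, Fxyd3, Epcam, Rgs5, Ttr, Mzb1, Prkg1, Tm4sf4 and Gm30211, of which Jchain, Iglc1, Iglv1, Igha and Mzb1 are genes of plasma cells. A set of immunoglobulin and plasma cell genes summed to 1669 and 547 CPM in the other tumor cells and to 86.1 and 52.8 CPM in Cxcl2-high cells. Acinar genes, the markers of enzyme-secreting pancreas cells, summed to 775 and 1446 CPM against 55.6 and 921 CPM, and reached 44.4% and 51.5% of the UMIs of single cells among the other tumor cells. The tumor gate thus let some cells through whose RNA was largely acinar. With tumor cells left out that held over 1% of UMIs from acinar, islet, mesothelial or plasma cell genes, 228 genes were higher, 225 of them among the 233, and 219 were lower, 205 of them among the 257. The lower genes depended more on the choice of cells: only 81 of the 257 were shared with no maximum on genes (265 lower) and 81 with Cxcl2 left out of the score (182 lower), and 102 with equal weight of the 5 genes (227 lower). Of the 233 higher genes 192, 159 and 186 were shared in these cases.

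The lists were also followed along the whole range of the score. The summed level of the TNF and NF-kB list was 1948 CPM in the 34 flox cells with a score of 0, 3237 CPM below the 80th percentile, 7239 CPM from the 80th to the 90th, 9583 CPM from the 90th to the 95th and 12406.5 CPM above. In the PSCs-MCT1-/- library the same bins had 1457, 2604, 7128, 8811 and 10612 CPM. The largest step came before the limit of the selected cells, between the second and the third bin, in both libraries. Cells with a score of 0 were shallow in both libraries (median 4638 and 6982 UMIs, against 15527 and 16125 UMIs in the next bin).

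A list of Csf1, Csf2 and 4 receptors of colony-stimulating factors (Csf1r, Csf2ra, Csf2rb and Csf3r) summed to 42.3 CPM in the lowest and 504 CPM in the highest bin of the flox library, and to 45.9 and 354 CPM in the other. The immediate-early list was at 15163 CPM in the flox cells with a score of 0, and at 21809, 25327, 23184 and 24011 CPM in the following bins. In the PSCs-MCT1-/- library it was at 15310, 16090, 14539, 16029 and 16614 CPM. The cell cycle list was at 719.8, 697, 490 and 438 CPM and, above the 95th percentile, 518 CPM in the flox library. In the PSCs-MCT1-/- library it was at 639, 684, 639, 729 and 416 CPM, so it was lower in the highest bin but not in the 110 Cxcl2-high cells of the bin before it.

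**Figure D3:**
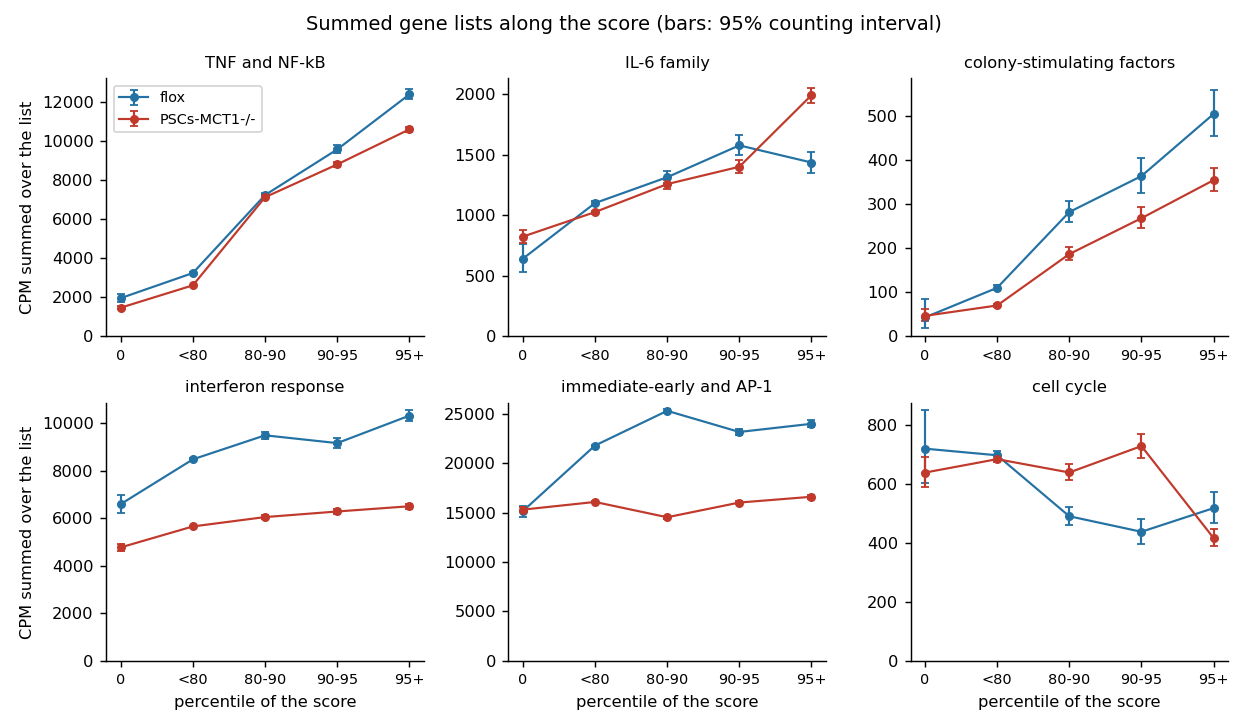
Summed CPM of 6 gene lists (vertical axis, from 0) in tumor cells binned by percentile of the score (horizontal axis), for the flox library (blue) and the PSCs-MCT1-/- library (red), with 95% counting intervals. Scoring genes are in none of these lists. The TNF and NF-kB list goes from 1948 to 12406.5 CPM and from 1457 to 10612 CPM, the immediate-early list lies between 14539 and 25327 CPM, and the list of colony-stimulating factors holds Csf1, Csf2 and 4 receptors.

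Markers of other cells were checked because neutrophils carry much Cxcl2. In the flox library 9 neutrophil markers summed to 631 CPM in Cxcl2-high cells and 128 CPM in the other tumor cells, and in the PSCs-MCT1-/- library to 91.5 and 91.8 CPM. The flox medians per cell were 94.3 and 87.9 CPM, and those of the PSCs-MCT1-/- library were 0 and 0. The whole list ranged from 0 up to 5.48% of UMIs in 1 flox cell and 1.00% in the PSCs-MCT1-/- library. Above 0.1% of UMIs were 5 of 93 and 3 of 232 Cxcl2-high cells (5.38% and 1.29%), against 1.18% and 0.853% of the other tumor cells. Of the defining receptors of neutrophils, Csf3r had 12 and 0 UMIs and Cxcr2 had 3 and 1 UMIs in all Cxcl2-high cells together. Csf3r was at 7.17 CPM against 2.06 CPM in the other tumor cells of the flox library, and at 0 against 1.02 CPM in the PSCs-MCT1-/- library.

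When all tumor cells with a UMI of 8 immune genes were left out, 6 flox and 77 PSCs-MCT1-/- cells made up the top 10%. In them Nfkbia was higher than in the other tumor cells by 4.19-fold and 3.83-fold, Nfkb1 by 3.72-fold and 3.78-fold and Csf1 by 4.92-fold and 4.53-fold. The scoring genes, fixed by the rule here too, had ratios of 7.66 and 9.32 (Cxcl2), 19.8 and 8.23 (Cxcl1) and 2.74 and 4.28 (Ereg). The flox values rested on 6 cells, in which Csf1 had 21 UMIs and Csf3, Il6 and Ccl2 had none. Of the TNF and NF-kB list 8 genes were then higher, of 79 higher genes in all. Bcl3, Nfkbie, Tnip1 and Traf1 of this list could not be computed there, and the number of genes compared is not given. The 8 are thus not to be set against the 15 of 26 above. The part of neutrophil RNA in the other flox values was not tested. Macrophage markers summed to 3326 and 1635 CPM against 3292 and 1484 CPM, and 7 fibroblast and stellate markers to 952 and 809 CPM against 1192 and 900.1 CPM, with a UMI in 97.8% and 94.8% of Cxcl2-high cells. Among the flox Cxcl2-high cells Postn and every marker of islet and mesothelial cells had no UMI.

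Among all barcodes with at least 500 UMIs that met the same limits on genes and mitochondrial share, Cxcl2-high cells were 1.06% in the flox library and 1.98% in the PSCs-MCT1-/- library. They held 9.63% and 21.2% of all Cxcl2 UMIs, 13.7% and 26.8% of Cxcl1, 15.1% and 26.6% of Lif, 11.5% and 14.6% of Ereg, and 14.03% and 30.1% of Csf3. These shares depend on the limit of 5000 genes, which leaves out large cells. Without it the same cells held 5.24% and 15.5% of Cxcl2 and 5.09% and 22.7% of Csf3. The whole of the other tumor cells, 10.6% and 17.1% of cells, held 11.9% and 19.6% of Cxcl2. Shares of cells are not shares of RNA, since tumor cells had at least 3000 UMIs and the other barcodes at least 500. The median was 15497 and 15912.5 UMIs in the other tumor cells, and 1509 and 1084 UMIs in the neutrophil gate described below. A share of UMIs above the share of cells thus does not by itself mean a higher level. For the 5 scoring genes a high share in Cxcl2-high cells also follows from the rule that chose these cells.

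Neutrophils, taken as barcodes with at least 1% of UMIs from S100a8 and S100a9, had Cxcl2 at 27326 and 11866 CPM. In them Cxcl1 was at 149.7 and 146 CPM, Lif at 14.4 and 14.5 CPM, Ereg at 8.11 and 29.1 CPM and Csf3 at 8.11 and 26.8 CPM. The Cxcl2-high cells were chosen on these genes, so their levels are not set against those of the gate. A gate on collagen and stromal genes held 35.8% and 24.4% of Cxcl1 UMIs, but 82.8% and 77.8% of its cells also had at least 2 UMIs of Krt8 and Krt18, so that tumor cells and fibroblasts are not separated in it.

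The receptors were examined in the same gates. Csf3r was at 1002 and 516 CPM and Cxcr2 at 397 and 390 CPM in the neutrophil gate, which held 79.3% and 86.4% of all Cxcr2 UMIs. Lifr held 4 and 3 UMIs in Cxcl2-high cells and was at 17.6 and 36.4 CPM in the macrophage and monocyte gate, whereas Il6st, the shared subunit, was at 57.4 and 59.9 CPM in Cxcl2-high cells. Egfr, the receptor of Ereg and Areg, was at 97.4 and 98.1 CPM in Cxcl2-high cells and at 98.2 and 87.5 CPM in the other tumor cells. Il1b and Tnf, which activate NF-kB, were mostly in immune gates, with 49.8% and 56.6% of Il1b UMIs and 65.2% and 71.0% of Tnf UMIs in macrophages and monocytes.

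**Figure D4:**
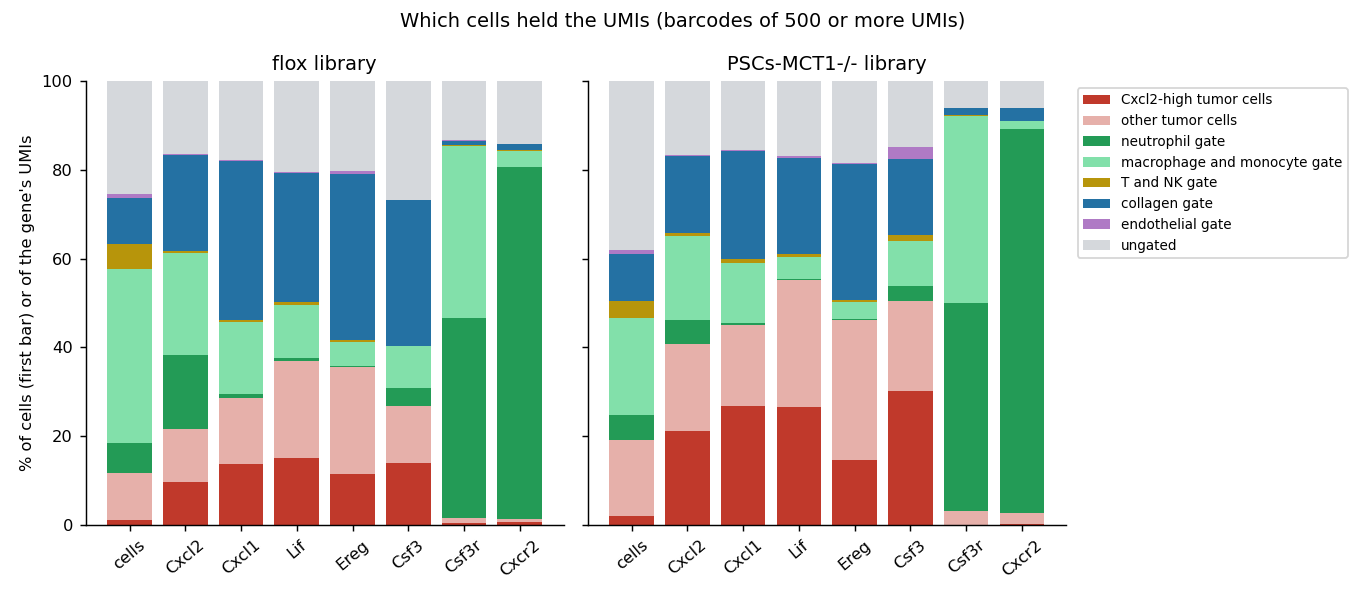
Stacked bars show, for each library, the percent of kept barcodes with at least 500 UMIs (first bar) and the percent of each gene's UMIs that fell in 8 groups of cells. Cxcl2-high tumor cells (red) are 1.06% and 1.98% of cells and hold 9.63% and 21.2% of Cxcl2, whereas the neutrophil gate (dark green) holds 79.3% and 86.4% of Cxcr2 and 45.0% and 46.9% of Csf3r. The groups differ in UMIs per cell, so the first bar is not a share of RNA. Cxcl2-high cells were chosen on the scoring genes, so their high share of those UMIs follows from the choice.

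Between the libraries, Cxcl2-high cells of the PSCs-MCT1-/- library were set against those of the flox library, as a comparison of 1 library with 1. The scoring genes are given as a description, since 1 limit on their sum chose the cells of both libraries and Cxcl2 made up most of that sum. Csf3 had a ratio of 3.18 (2.18 to 4.79), or 5.59 (3.36 to 9.96) without the cell with the most Csf3 in each library. Lif had a ratio of 1.48 (1.32 to 1.65) and Cxcl1 of 1.4003 (1.34 to 1.47), with Cxcl2 of 1.05 (1.03 to 1.07) and Ereg of 0.943 (0.860 to 1.04). In the other tumor cells the ratios were 2.43 (1.62 to 3.78) for Csf3, 1.11 for Lif, 0.892 for Cxcl1, 0.798 for Cxcl2 and 0.983 for Ereg. Among cells without immune UMIs, with 6 flox cells, the ratios in Cxcl2-high cells turned to 0.774 for Lif, 0.435 for Cxcl1 and 0.864 for Cxcl2. Whether these differences belong to the condition or to the library cannot be told apart.

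Of 7959 genes with at least 50 UMIs in Cxcl2-high cells, 157 were at least 2-fold higher in the PSCs-MCT1-/- library (1.97%) and 158 at least 2-fold lower (1.99%), and 80 of these were past 2-fold the same way in the other tumor cells. The 6 leading higher genes were 2210010C04Rik, Cela3b, Reg2, Cela1, Cpa1 and Ctrb1, and all 10 genes of the acinar list were higher. The sum of that list was at 921 CPM against 55.6 CPM in Cxcl2-high cells. In the free RNA of barcodes with 10 to 100 UMIs it was at 17539 against 342 CPM. With 10% of that free RNA subtracted, 6 of the 10 acinar genes had ratios below 1, among them Ctrb1 at 0.134. The ratios of the other 4 (Cela1, Cela3b, Cpa1 and Reg2) and of 2210010C04Rik could not be computed. In the PSCs-MCT1-/- library the subtracted sum was larger than the acinar sum of the cells. Counts were not allowed below the floor of 3 UMIs. A ratio below 1 can thus come from the subtraction itself and is not read as a reversal. Neutrophil genes were lower: Il1b had a ratio of 0.0761, S100a9 0.119 and G0s2 0.0778. In the flox Cxcl2-high cells the neutrophil markers were uneven, at 631 CPM over all cells together and 94.3 CPM in the median cell. The size depended on how the cells were chosen, with S100a9 at 0.298 with equal weight of the 5 genes and 0.294 with Cxcl2 left out of the score, and S100a8 (0.215) at 1.44 for the top 5% of cells.

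No gene of the TNF and NF-kB list was past 2-fold in either direction (0 of 23, near the shares of 1.97% and 1.99% over all genes), with Nfkbia at 0.699, Nfkb1 at 1.25 and Tnfaip3 at 0.907. Of 20 interferon genes 6 were lower, among them Ifit3 (0.284), Gbp5 (0.386) and Bst2 (0.416), and of 9 heat shock genes 4 were lower, among them Hsph1 (0.114). All 4 macrophage markers compared (Tyrobp, Fcer1g, Apoe and Cd74) were lower as well, with a median ratio of 0.410 in Cxcl2-high cells and 0.432 in the other tumor cells, and their part in the interferon values was not tested. Of 23 genes of glycolysis and hypoxia 4 were lower (Pdk1, Car9, Bnip3 and P4ha1). Myc was at 468 CPM against 205 CPM, higher by 2.28-fold (2.03 to 2.57), Areg by 2.03-fold (1.67 to 2.48), Spry2 by 2.47-fold and the oxidative stress gene Srxn1 by 3.98-fold, whereas Spry1 was lower (0.469). In the other tumor cells Hsph1 (0.0961) and Ifit3 (0.393) were also past 2-fold, as was Srxn1 (2.48), while Myc was at 1.55 and Areg at 1.63.

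**Figure D5:**
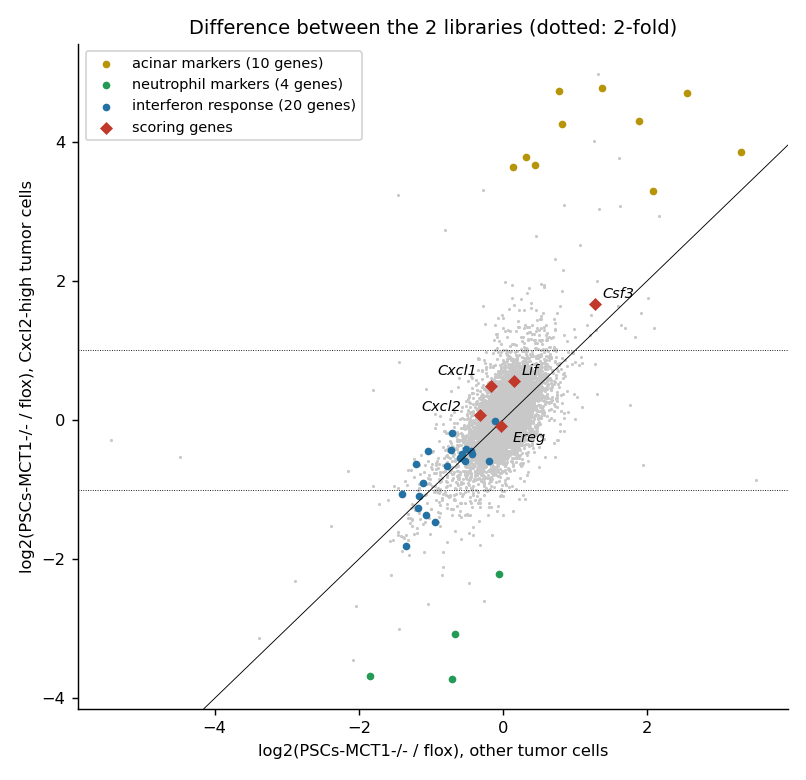
Each point is a gene, with log2 of the ratio of CPM between the PSCs-MCT1-/- and the flox library in the other tumor cells (horizontal axis) and in Cxcl2-high cells (vertical axis); dotted lines mark 2-fold and the solid line equal ratios. Csf3 lies above the upper dotted line (3.18 and 2.43), Cxcl2, Ereg, Lif and Cxcl1 lie between the lines, acinar markers are high and neutrophil markers low.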

How the data were processed

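Both libraries were single-cell 3′ RNA libraries of tumor cell suspensions. The labels name the SeekOne MM kit, the methods the 10x Chromium platform or the SeekOne DD kit. Reads were cleaned in Fastp and turned into a matrix with SeekOneTools by the authors, who deposited UMI counts per gene and barcode without normalization. The submitters' processing notes name Seurat 4.0.0 and GRCh38, but the features are mouse genes, and the genome used for counting is not given clearly in the sources used here. Positions come from GENCODE vM21 (GRCm38) by identifier.

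Cells were selected, and UMIs summed per group and scaled to CPM, in python 3.11.15 with numpy 2.4.6, scipy 1.17.1 and pandas 2.3.3, and plotted with matplotlib 3.10.9. Intervals are exact Poisson for CPM, conditional exact for ratios and Clopper-Pearson for shares. Counts under 3 UMIs were set to 3 in ratios. Thinning drew 3000 UMIs per cell. A barcode in several gates went to the tumor cells first, then to neutrophils, macrophages, T and NK cells, the collagen gate and endothelial cells. Doublets were not called. The calculation of ratios was tested on simulated counts. No test across cells was used, since cells of 1 library are not replicates. Named are genes of the lists, the 12 leading genes in each direction by the weaker of their 2 ratios, and the 6 leading genes in each direction between libraries. The cells and lists were chosen with earlier results of these data known. Alternatives changed the cell filters, the score, the scaling, the minimum of UMIs per gene and the fold. Some items are not reported here.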

Additional observations from a re-analysis of the deposited data

Results flagged for a closer look

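For 3 named genes the ratio between Cxcl2-high and other tumor cells was past 1.5-fold in opposite directions in the 2 libraries, with counting intervals on opposite sides of 1. Over all 10264 genes compared, 36 were past 1.5-fold in opposite directions. Il1b had a ratio of 4.39 in the flox library and 0.544 in the PSCs-MCT1-/- library, on 276 and 48 UMIs in Cxcl2-high cells. It is 1 of the neutrophil markers, which were above 0.1% of UMIs in 5 of 93 flox Cxcl2-high cells. The interferon gene Rsad2 had 0.431 and 1.84, on 9 and 19 UMIs. Tgfbi had 0.389 and 1.54, on 5 and 37 UMIs. With 1 library per condition these differences were not tested.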

How the results depend on the processing

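No paired analysis was possible because each condition had 1 library, so no replicate could be left out either. The ratio of shares of Cxcl2-high cells went from 1.15 to 2.01 among tumor cells without immune UMIs (6 and 77 cells), and the genes higher in Cxcl2-high cells from 233 to 79 there and to 86 past 2-fold. The lower genes went from 257 to 112 for the top 20% of cells, 23 without immune UMIs, 71 with at least 200 UMIs per gene and 42 past 2-fold. Between libraries the higher and lower genes (157 and 158) became 33 and 47 with at least 200 UMIs, 429 and 691 with at least 1 UMI, and 688 and 544 past 1.5-fold, and the lower genes became 251 without immune UMIs. In each of these cases the cause was not tested beyond the stricter or looser limit itself.

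With the top 5% of cells the held-out ratios were 6.22 for Lif in the PSCs-MCT1-/- library, 2.55 for Csf3 in the flox library, 7.07 and 9.35 for Cxcl1, 4.36 and 5.49 for Cxcl2, and 3.41 for Ereg in the flox library. Thinned to 3000 UMIs before scoring, they were 6.26 for Lif and 5.003 for Cxcl2 in the PSCs-MCT1-/- library and 3.25 for Csf3 in the flox library. Cxcl2-high cells held 9.78% and 21.7% of Cxcl2 UMIs over barcodes with at least 1000 UMIs. With no maximum on genes they held, in the flox library, 5.98% of Lif, 5.09% of Csf3, 6.05% of Cxcl1, 5.24% of Cxcl2 and 5.01% of Ereg, and in the PSCs-MCT1-/- library 18.1%, 22.7%, 19.0%, 15.5% and 10.4%.

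Some ratios between the libraries changed direction. Without immune UMIs Lif was at 0.774, Cxcl1 at 0.435 and Cxcl2 at 0.864, and with equal weight of the 5 genes Cxcl2 was at 0.954. With 10% of free RNA subtracted the acinar genes were at 0.259 (Clps), 0.134 (Ctrb1), 0.377 (Pnlip), 0.335 (Prss2), 0.239 (Try4) and 0.291 (Try5). The subtracted acinar sum was larger than that of the PSCs-MCT1-/- Cxcl2-high cells, so these acinar ratios can come from the subtraction itself. Cenpf was at 0.675 for the top 5% and 0.817 with Cxcl2 left out of the score, and S100a8 at 1.44 for the top 5%. Igha in Cxcl2-high over other tumor cells was at 1.67 with tumor cells limited to 1% of UMIs from other-cell genes. The equal weight of genes and the limit on other-cell genes were chosen after seeing the data. For the named genes in Cxcl2-high over other tumor cells, 1460 of the recomputed values stayed past 1.5-fold in the same direction in both libraries. Of the rest, 182 fell short of this and 1 changed direction. The 1460 include settings that could not change a ratio, with 81 values each. These are a minimum of 1 or of 200 UMIs per gene, and the score without Csf3, which chose the same cells. For the scoring genes 142 stayed within the counting interval of the main value and 69 moved out of it. Over all results, 70 values could not be computed without immune UMIs. The cell with the most Csf3 was also left out after seeing the data.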
